A study of Homo sapiens with 54 samples.

Results

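Olaparib resistant (OlaR) SUM1315 cells given the lower of 2 doses of cisplatin (CDDP) were compared with OlaR SUM1315 cells given none, across all expressed genes. Samples were chosen by their titles as the 3 replicates at 2 µM CDDP and the 3 replicates without CDDP, 6 of 54 samples in the series. SUM1315 is a BRCA1 mutant triple negative breast cancer line. Its OlaR derivative is a single resistant culture, obtained by growth in rising olaparib and then kept in 25 µM of this PARP inhibitor, so that the controls carried olaparib too. The series holds 2 lines, SUM1315 and MDA-MB-468, each in 9 conditions, and asks how olaparib resistant cells respond to a platinum drug. CDDP was given overnight by the methods, and doses are written here in µM as in the titles, although the treatment text of the labels writes mM. Beside these samples, OlaR SUM1315 cells at 4 µM CDDP and parental SUM1315 cells in 8 µM olaparib, with and without 2 µM CDDP, are used for comparison. Whether replicates came from separate cultures is not stated, so p-values measure only the spread between these samples, which may be technical.

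Cisplatin forms platinum adducts and crosslinks between DNA bases, which stop both replication forks and RNA polymerase. Interstrand crosslinks are removed by the Fanconi anemia pathway together with homologous recombination, the repair route in which BRCA1 acts. Transcription of a long gene passes more template than that of a short one, and damaged cells are held in S phase or before mitosis by checkpoints.

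RNA was read from the 3′ ends of transcripts. Values are reads per gene that the authors adjusted to a common library size, called adjusted read counts, and the whole reads behind them were recovered. These came to 3900438, 3446613 and 3775132 reads in the OlaR replicates 1, 2 and 3. The OlaR + 2 µM CDDP replicates held 3897475, 4486158 and 4155031. At this depth many transcripts had a few reads per library, and fold changes of such genes are imprecise. A gene with at most 3 reads in each library of a group is given in reads, without a fold.

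The 6 libraries held both mesenchymal and epithelial markers, and no reference values of the line were at hand. Vimentin (VIM), a mesenchymal filament protein, stood at 9213, 8817 and 9529 adjusted read counts in OlaR cells and at 8546, 7929 and 8861 after CDDP. EPCAM, an epithelial adhesion molecule, had no read in any of the 6 libraries, and the progesterone receptor gene PGR had none either. The keratins KRT7 and KRT18 were present, with means of 2358 and 308 in OlaR cells and 1926 and 316 after CDDP. ERBB2 had 34, 30 and 36 reads in OlaR cells and 43, 38 and 43 after CDDP, and GATA3 20, 22 and 20 against 36, 43 and 37. Of 17 epithelial and mesenchymal markers, 14 were tested and the basal keratin KRT17 was lower (0.876% of all genes were), while 4 of 5 hormone receptor and ERBB2 markers were tested and none was called. Of 12 markers of blood, endothelial, stromal and liver cells, 3 reached the level for testing and none was called. Their summed level was 233, 179.8 and 289 in OlaR cells and 285, 308 and 242 after CDDP, with overlap between the groups. COL1A1, a collagen gene that mesenchymal tumor cells also express, was the most abundant of them. The endothelial PECAM1 had 47, 24 and 44 reads in OlaR cells and 55, 56 and 45 after CDDP and the macrophage CD68 up to 7, while CD3E, VWF, CDH5, COL1A2 and ALB had none. Replicate 2 of OlaR + 2 µM CDDP stood apart from its group. Between it and the other 2 replicates the chi-square per degree of freedom of the reads was 6.61 and 6.99, against 2.42 between replicates 1 and 3 and 2.41 to 2.63 among the OlaR controls. Its deviation from the group mean had a median of -0.077 (log2) among genes with the highest GC content in the last 500 transcript bases and 0.024 among those with the lowest, of 5 classes. The total of DEGs and the numbers of called list members at 2 µM are therefore also given without it where they differ.

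After 2 µM CDDP more genes were lower than higher in OlaR SUM1315 cells, and 30 of the 45 that were lower by 2-fold or more spanned at least 300 kb. A gene was counted as a DEG where limma gave an adjusted p of 0.05 or less (Benjamini-Hochberg, 13133 genes) and the change was 2-fold or more. There were 70 DEGs (0.533%), of which 25 were higher (0.19%) and 45 lower (0.343%). Without the limit on the fold change, 187 genes passed (1.42%), 72 higher (0.548%) and 115 lower (0.876%). The median log2 fold change of all genes tested was 0.0039. For 12 of the 25 higher DEGs each control library held at most 3 reads, and for 8 of the 45 lower DEGs each treated library did. The filter on level used all 27 SUM1315 libraries, so genes near 0 in both OlaR groups could enter through parental cells. KLHL9, a higher DEG, had 0, 1 and 0 reads in OlaR cells and 2, 1 and 2 after CDDP. Its mean was 273 adjusted read counts in parental cells in olaparib. Filtered and fitted on only the groups compared, 11 DEGs were higher and 49 lower.

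These counts depended on the test and on single libraries. edgeR on the recovered reads called 33 DEGs, 6 higher and 27 lower, all among the 70, and DESeq2 called 45, 9 higher and 36 lower, of which 42 were among them. At the adjusted p alone edgeR called 22 higher and 67 lower and DESeq2 42 higher and 113 lower. Leaving out OlaR replicate 1 gave 46 DEGs. The higher DEGs were 16 without OlaR replicate 1, 15 without OlaR + 2 µM CDDP replicate 2 and 15 without its replicate 3, while without OlaR replicates 2 and 3 the split was nearly even, with 25 higher and 26 lower and with 24 higher and 27 lower. Genes at the adjusted p numbered 101, 108 and 120 without OlaR replicates 1, 2 and 3, and 123 and 115 without replicates 1 and 3 of the treated group. Without its replicate 2, which stood apart, 63 DEGs were called, 15 higher and 48 lower, and 126 genes at the adjusted p, 38 higher and 88 lower.

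TRAPPC9, which encodes a subunit of a vesicle trafficking complex, showed the largest fall among DEGs with a mean of at least 10 adjusted read counts. It spans 731 kb on chromosome 8 (GRCh38, 139727725 to 140458579). Its adjusted read counts were 75.4, 69.5 and 93.7 in OlaR cells and 22.2, 7.18 and 14.0 after 2 µM CDDP. Every treated library lay below every control, and the log2 fold change was -2.49 ± 0.40 (SE), with an adjusted p of 0.000438 from limma. THSD4 (chromosome 15, 71096952 to 71783383), coding for a protein of the extracellular matrix, read 122, 95.0 and 91.05 in the controls and 31.0, 14.8 and 18.5 after CDDP. The groups were apart here as well, and THSD4 fell by 2.26 ± 0.37 on the log2 scale (limma adjusted p = 0.000524). IMMP2L (chromosome 7, 110662644 to 111562517), a gene for a mitochondrial inner membrane peptidase, went from 130.3, 129.6 and 117.6 to 29.1, 26.5 and 45.6. Its fall of 1.91 ± 0.36 (log2, limma adjusted p = 0.00227) again left no overlap.

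FANCC, a subunit of the Fanconi anemia core complex, was among the 12 largest falls of DEGs with a mean of at least 10 adjusted read counts and no overlap. Its counts were 69.0, 77.2 and 70.6 in OlaR cells and 34.8, 31.9 and 20.6 after CDDP. All 3 treated libraries were lower, by 1.31 ± 0.23 on the log2 scale (limma adjusted p = 0.00122). The gene spans 328 kb on chromosome 9 (95099054 to 95426796), with AOPEP on the other strand. CDK14, a cyclin dependent kinase gene of 744 kb, stood at 182, 123 and 138 in the controls and at 41.6, 53.8 and 56.4 after CDDP. The drop was 1.52 ± 0.24 (log2, limma adjusted p = 0.000453), and the groups did not overlap. The other 7 were PARD3B (-2.20), PLCG2 (-2.12), MIRLET7BHG (-1.81), CADPS2 (-1.60), CFAP300 (-1.31, C11orf70 in the table), LINC00938 (-1.28) and MSRA (-1.28), given as log2 fold changes. Each of the 6 libraries was left out in turn. PARD3B then stayed called only without OlaR + 2 µM CDDP replicate 1 or 2 (adjusted p up to 0.122), MIRLET7BHG only without OlaR replicate 2 or OlaR + 2 µM CDDP replicate 2 (up to 0.0926) and CFAP300 only without OlaR + 2 µM CDDP replicate 2 (up to 0.122). The call was also lost for PLCG2 without OlaR + 2 µM CDDP replicate 1 (0.0601) and for LINC00938 without its replicate 2 (0.0814). MIRLET7BHG and CFAP300 were not called by edgeR or DESeq2 either. Whether strand was used in counting is not given in the sources used here, so reads of a gene and of one on the opposite strand cannot be told apart. This also holds for LRRN3 inside IMMP2L. PEG13 lies inside TRAPPC9 on the same strand.

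Of the 25 higher DEGs, 12 had a mean of at least 10 adjusted read counts and no overlap, and CHAC1 was 1 of them. It encodes a glutathione degrading enzyme that is a target of the stress factor ATF4. Adjusted read counts were 26.7, 29.2 and 27.3 in OlaR cells and 66.2, 75.5 and 69.7 after CDDP. No library of one group came near the other, and the log2 fold change was 1.31 ± 0.18 (SE, limma adjusted p = 9.21e-05). INKA2 (FAM212B in the table), an inhibitor of the kinase PAK4, rose from 5.90, 3.72 and 3.46 to 27.1, 26.0 and 31.5. Its controls were near the limit of detection, and its log2 fold change of 2.47 ± 0.46 (limma adjusted p = 0.00227) is correspondingly imprecise. FAM111B, a protease gene with its highest expression in S phase, read 90.2, 139 and 119 in the controls and 202, 359.5 and 254 after CDDP. The treated libraries were all higher, by 1.20 ± 0.22 (log2, limma adjusted p = 0.0021).

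The other 9 of these 12 higher DEGs were LINC00662 (2.22), THAP10 (2.07), ZNF350 (2.04), ZNF695 (2.03), SLC9A5 (1.66), EVI2B (1.55), ZNF502 (1.35), ELOVL4 (1.34) and TRPA1 (1.02), again in log2 units. The rise of TRPA1 was the smallest of all 25 higher DEGs. All but LINC00662 code for proteins, and ZNF350, ZNF502 and ZNF695 are zinc finger genes. EVI2B lies inside NF1 on the opposite strand. With a library left out, ELOVL4 was called in none of 6 fits (adjusted p up to 0.147), ZNF695 only without OlaR + 2 µM CDDP replicate 2 (up to 0.195), EVI2B only without OlaR + 2 µM CDDP replicate 1 (up to 0.185) and TRPA1 only without OlaR replicate 3 or OlaR + 2 µM CDDP replicate 1 (up to 0.292). ZNF502 lost its call without OlaR replicate 1 or 2 (up to 0.0989) and SLC9A5 without OlaR replicate 1 (0.0556). By edgeR none of these 6 was called, and by DESeq2 only ZNF502 and SLC9A5 were. Over the alternatives and the libraries left out, the log2 fold change of TRPA1 lay between 0.56 and 1.38. ADRB1, the gene of the beta-1 adrenergic receptor, had the highest fitted value of all DEGs, with 0 reads in each OlaR library and 1, 10 and 7 after CDDP. ZNF222, with 0, 1 and 0 reads against 7, 7 and 5, was of the same kind. On the falling side, RGS7 held 6, 16 and 8 reads in the controls and 0, 2 and 0 after CDDP, GRIK2 9, 12 and 9 against 0, 3 and 0, and CDH3 2, 3 and 11 against none. These 5 genes were chosen after their values were seen.

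**Figure D1:**
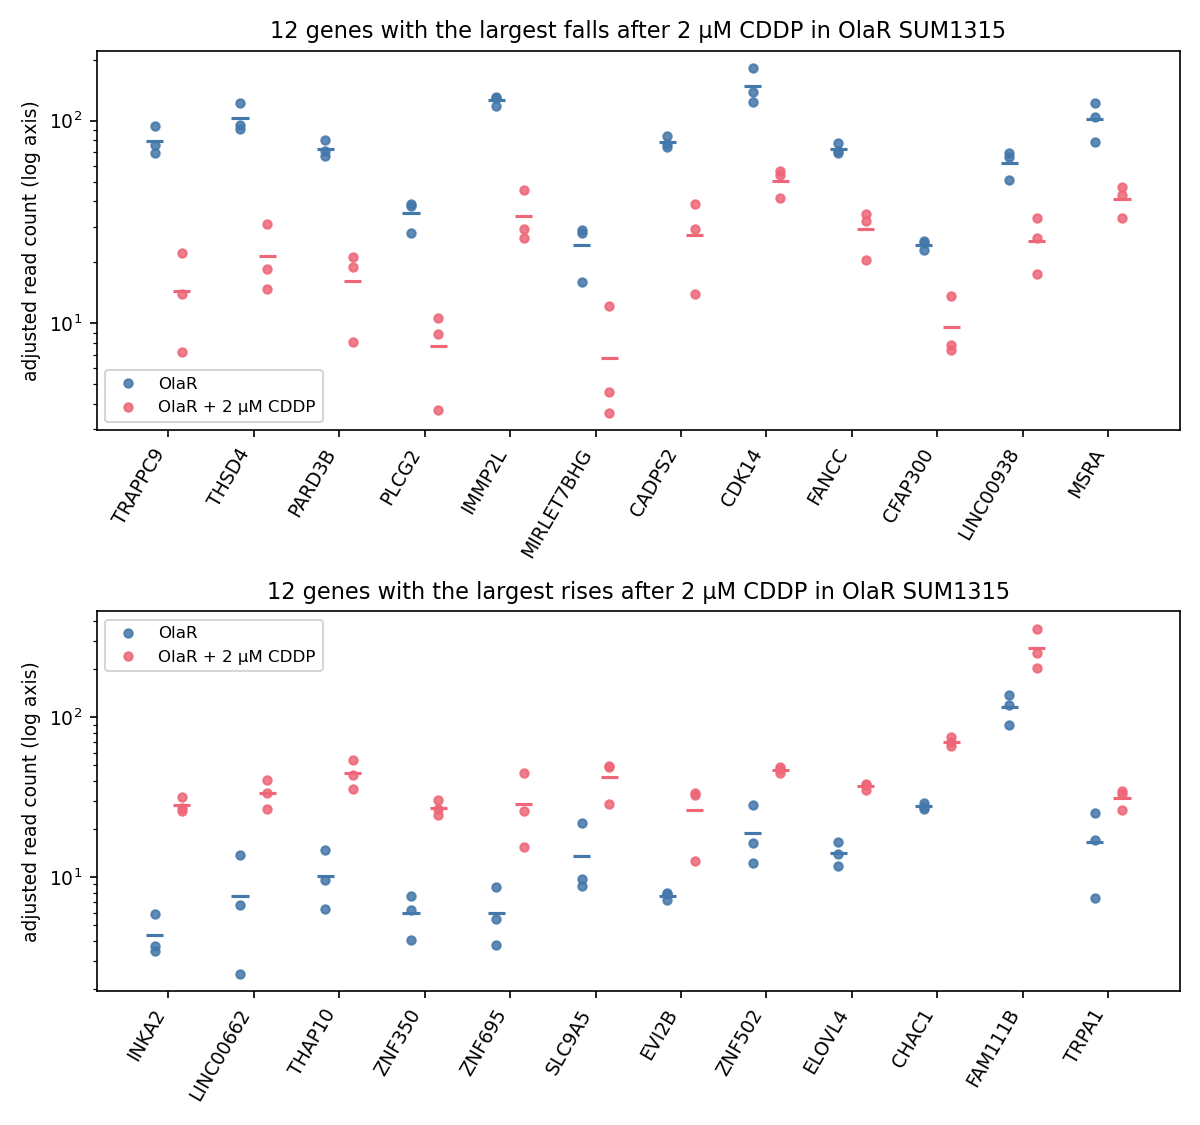
Adjusted read counts (log axis) of the 12 DEGs with the largest falls and the 12 with the largest rises after 2 µM CDDP in OlaR SUM1315, among those with a mean of at least 10 and no overlap. Points are single libraries, 3 per group, and lines are group means. TRAPPC9 drops from 69.5 or more in each control to 22.2 or less, and CHAC1 rises from 29.2 or less to 66.2 or more.

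The fold limit divided close neighbours. Just inside it were SMYD3, HS6ST3 and FBXL17, each at -1.01 (log2), and just outside were SNORD26 (-0.9998), EXOC4 (-0.98) and AFG3L1P (0.98). HS6ST3, a heparan sulfate sulfotransferase gene of 749 kb, read 178, 179 and 183 in OlaR cells and 89.5, 92.4 and 85.3 after CDDP. The replicates of each group lay close together, and the SE was 0.14 with a limma adjusted p of 0.000122. EXOC4, an exocyst subunit gene of 814 kb, read 386, 349 and 318 against 176, 185 and 170.2. Its counts did not overlap either (SE 0.19, limma adjusted p = 0.00264), so that its place outside the DEGs rests on the limit alone. SMYD3 lost its call without OlaR replicate 2 or 3 or OlaR + 2 µM CDDP replicate 3 (adjusted p up to 0.0882). SNORD26 was called only without OlaR + 2 µM CDDP replicate 1 (up to 0.177) and AFG3L1P only without replicate 3 of either group (up to 0.119), and DESeq2 did not call the first nor edgeR the second.

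Gene span went with the direction of change. Of the genes tested, 12772 (97.3%) had a position in the annotation, and their median span was 32.8 kb. Lower DEGs had a median span of 493 kb and higher DEGs of 15.7 kb. Among the 490 genes of 300 kb and over, 30 were lower DEGs (6.12%) and 0 were higher, and at the adjusted p alone 55 were lower and 0 higher. With 0 genes higher in this class, edgeR and DESeq2 also called 0, with 40 and 54 lower. The median log2 fold change of these long genes was -0.35 (-0.12 with no filter on expression), and 80.4% were below 0. It was -0.35 also with the 12 genes that had no read in a group set at the bound given by 3 reads over the group.

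Shorter classes stayed close to the background. The median was -0.039 in 2065 genes of 100 to 300 kb, 0.032 in 4142 genes of 30 to 100 kb, 0.033 in 3478 genes of 10 to 30 kb and -0.015 in 2597 genes under 10 kb. Lower DEGs numbered 3, 8, 0 and 4 in these classes, and higher DEGs 1, 7, 8 and 8. In the class under 10 kb the median was 0.0016 without OlaR + 2 µM CDDP replicate 2. In each treated library the long genes lay below the mean of the controls, with a median of -0.33, -0.33 and -0.41 in replicates 1, 2 and 3, while genes under 300 kb had medians of 0.017, 0.011 and 0.016. OlaR controls taken singly lay between -0.013 and 0.014. The long genes were thus low in all 3 treated libraries, including the one that stood apart, and without it 30 of 490 were lower DEGs and the median was -0.36.

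Values also differed with the base composition of the sequenced 3′ ends. Over 5 classes of genes by GC content, the median log2 fold change went from 0.052 in the lowest to -0.047 in the highest. Long genes were below 0 in each of the 5, with medians of -0.33, -0.25, -0.47, -0.32 and -0.62 from the lowest to the highest. The highest class held only 18 long genes. What part GC content had in the other results was not tested.

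**Figure D2:**
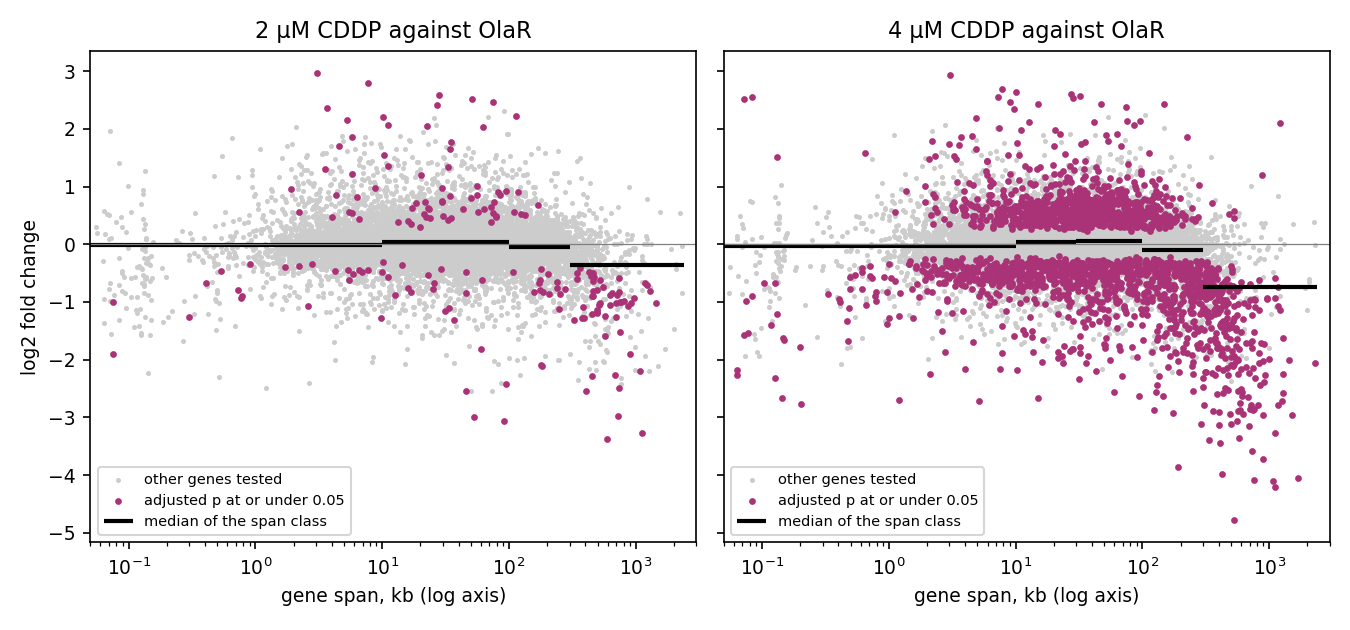
Log2 fold change against gene span in kb (log axis) for 2 µM CDDP (left) and 4 µM CDDP (right), each against OlaR cells without CDDP. Points are genes, in purple where the adjusted p was at or under 0.05, and black lines are the medians of the 5 span classes. The line of the genes of 300 kb and over lies at -0.35 on the left and -0.75 on the right.

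Common fragile sites are regions that break under replication stress, and many lie inside very large genes. Of 30 genes listed for such sites, 19 were tested and 7 were lower (0.876% of all genes tested were lower), with none higher. The median of the 19 was -0.80, also at the bounds, against 0.0039 for all genes, and 17 were below 0. Among all tested genes of 300 kb and over, 55 of 490 were lower and the median was -0.35. Whether listed genes differed from other genes of like span was not tested. LPP, a focal adhesion protein gene of 737 kb, was the most highly counted named member, with 507, 417 and 448 in OlaR cells and 311, 289 and 317 after CDDP. The groups were apart, at -0.58 ± 0.11 (log2, limma adjusted p = 0.00353). Beside LPP, THSD4, IMMP2L and EXOC4, the lower members were DPYD (-1.02), PTPRG (-0.82) and CDH13 (-0.67). Without OlaR + 2 µM CDDP replicate 2, 6 of the 19 were lower and their median was -0.74.

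Targets of NF-κB, the transcription factor of inflammatory signalling, were raised in part. Of 40 listed and tested, 5 were higher (0.548% of all genes were higher) and none lower, and the median was 0.29 against 0.0039 for all genes. The number was 4 without OlaR + 2 µM CDDP replicate 2 and by DESeq2, and 3 by edgeR. CXCL1, a neutrophil attracting chemokine, read 1169.7, 1089 and 1093 in OlaR cells and 2082, 2285 and 2130.2 after CDDP. The groups were far apart for their spread, at 0.95 ± 0.11 (log2, limma adjusted p = 7.76e-06), the smallest adjusted p among the genes named here for this contrast. BIRC3, an inhibitor of apoptosis that is induced by NF-κB, read 242, 344 and 244 against 422, 516 and 438. All treated libraries were higher, by 0.74 ± 0.13 (limma adjusted p = 0.000789). CXCL3 (0.55), NFKBIZ (0.42) and TNFAIP3 (0.41) completed the 5, but CXCL3 lost its call without OlaR replicate 1 and without OlaR + 2 µM CDDP replicate 1 or 3 (adjusted p up to 0.0801). TNFAIP3 was called only without replicate 2 of either group (up to 0.165) and not by edgeR. CCL20 and TRAF1, also listed, stood at 0.73 and 0.70 with adjusted p of 0.212 and 0.342 (limma).

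The 5 raised NF-κB targets shared a sequence near their starts. The letters GGG, any 2 bases and TTTCC, a common form of the κB motif, were searched on both strands in the 300 bases around each start (250 before, 50 after), taken from RefSeq for GRCh38.p14. They were found in 1.92% of 27305 promoters, in 13 of 34 promoters of the tested list with an entry and in the promoters of all 5. Motifs were chosen with the results known, and a match is a description and not a site. Promoters of CXCL1 (chr4:73869143-73869442, plus strand) and BIRC3 (chr11:102317234-102317533, plus strand) are shown as those of the 2 raised members with the smallest p, with the match in capitals. In BIRC3 the match reads on the opposite strand.
CXCL1: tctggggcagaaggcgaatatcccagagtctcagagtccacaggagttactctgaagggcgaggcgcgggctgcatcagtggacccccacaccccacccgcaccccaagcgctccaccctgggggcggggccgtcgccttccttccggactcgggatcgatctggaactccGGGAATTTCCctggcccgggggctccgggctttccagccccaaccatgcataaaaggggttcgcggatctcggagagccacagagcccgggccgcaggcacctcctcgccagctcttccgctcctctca
BIRC3: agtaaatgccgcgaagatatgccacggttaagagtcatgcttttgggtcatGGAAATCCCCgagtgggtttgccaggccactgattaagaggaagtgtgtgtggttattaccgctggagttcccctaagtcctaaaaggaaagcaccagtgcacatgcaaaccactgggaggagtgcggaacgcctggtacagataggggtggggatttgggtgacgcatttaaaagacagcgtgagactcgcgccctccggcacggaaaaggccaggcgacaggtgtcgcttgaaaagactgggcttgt

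S phase genes that passed the test were higher, and G2/M genes that passed were lower. Of 45 tested genes of S phase and E2F targets, 4 were higher (0.548% of all genes were) and none lower, with a median of 0.31 and 43 above 0. The number was 3 without OlaR + 2 µM CDDP replicate 2, 3 by edgeR and 6 by DESeq2. DTL, part of the ubiquitin ligase that degrades the licensing factor CDT1, read 211, 252 and 200 in OlaR cells and 344, 330 and 357 after CDDP. Treated libraries were all higher, by 0.64 ± 0.12 (log2, limma adjusted p = 0.00227). FAM111B, CDT1 (0.57) and CDC6 (0.35), the latter both of replication licensing, were the other 3, but CDT1 lost its call without OlaR replicate 3 or OlaR + 2 µM CDDP replicate 1 (adjusted p up to 0.0725), and CDC6 kept it only without OlaR + 2 µM CDDP replicate 3 (up to 0.174) and lost it by edgeR. The letters TTTNGCGC, a form of the E2F motif, were in 1.83% of all promoters, in 17 of 37 of the tested list and in those of CDC6, CDT1 and DTL, the raised members with an entry in the table. The promoter of CDC6 (chr17:40287629-40287928, plus strand) is shown with the match in capitals, 7 bases after the start.
CDC6: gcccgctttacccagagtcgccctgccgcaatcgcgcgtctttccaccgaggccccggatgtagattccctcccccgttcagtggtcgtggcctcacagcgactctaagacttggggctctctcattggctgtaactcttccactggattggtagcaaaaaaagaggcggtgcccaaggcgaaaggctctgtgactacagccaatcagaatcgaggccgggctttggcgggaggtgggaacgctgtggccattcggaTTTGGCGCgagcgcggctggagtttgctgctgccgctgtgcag

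Of 45 G2/M genes tested, 7 were lower (0.876% of all genes were) and none higher, with a median of -0.23 and 38 below 0. PLK1, a kinase needed for entry into mitosis, read 119, 122 and 132 in OlaR cells and 80.2, 59.8 and 61.8 after CDDP. The groups did not overlap, and the difference was -0.89 ± 0.16 (log2, limma adjusted p = 0.00179). CCNB1, the cyclin that activates CDK1, read 1816, 1647 and 1861 against 1313, 1041 and 1253. It fell by 0.57 ± 0.09 (log2, limma adjusted p = 0.000267), again without overlap. CKS2 (-0.63), AURKA (-0.54), PTTG1 (-0.48), ARL6IP1 (-0.48) and CDC20 (-0.45) were the others, all of them mitotic genes except ARL6IP1, which shapes the endoplasmic reticulum. Without OlaR + 2 µM CDDP replicate 2, 5 of the 45 were lower and the median was -0.20, and edgeR called 5 and DESeq2 7. More cells in S phase and more transcript per cell cannot be told apart in bulk RNA.
The letters TTTGAA, the core of the cell cycle homology region, were in 15.4% of all promoters, in 24 of 38 promoters of the tested list with an entry and in 3 of those of its 6 lower members. They are shown in capitals for PLK1 (chr16:23678639-23678938, plus strand), where they begin 29 bases before the start.
PLK1: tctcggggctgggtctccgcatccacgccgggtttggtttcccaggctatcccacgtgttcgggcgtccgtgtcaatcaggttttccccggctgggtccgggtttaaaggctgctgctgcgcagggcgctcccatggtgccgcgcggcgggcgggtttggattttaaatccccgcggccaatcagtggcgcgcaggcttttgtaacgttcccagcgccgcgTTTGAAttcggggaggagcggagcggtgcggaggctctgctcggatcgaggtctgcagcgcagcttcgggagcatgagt

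Genes of homologous recombination and the Fanconi pathway had a median of 0.26 over 38 tested, with 3 higher and 1 lower (0.548% and 0.876% of all genes). edgeR called 0 higher and 1 lower, and DESeq2 2 of each. BRCA2, the breast cancer susceptibility gene, read 44.1, 63.1 and 65.7 in OlaR cells and 107.0, 103 and 100.5 after CDDP. The treated libraries were the higher ones throughout, at 0.85 ± 0.20 (log2, limma adjusted p = 0.0228). RMI1 (0.61), of the complex that dissolves recombination intermediates, was also higher, and FANCC was the gene that fell. With a library left out, BRCA2 was called only without OlaR replicate 2 or 3 (adjusted p up to 0.158) and RMI1 only without OlaR replicate 1 or OlaR + 2 µM CDDP replicate 2 (up to 0.116), and neither was called by edgeR or DESeq2. Without OlaR + 2 µM CDDP replicate 2 only 1 gene of the list was higher. BRCA1, mutated in this line, read 344, 336 and 356 against 469.8, 479.7 and 467.6. These counts did not overlap, but the difference of 0.45 ± 0.13 did not pass (limma adjusted p = 0.077, but 0.033 when only these 2 groups were fitted).

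Other repair lists held no gene past the threshold by limma. These were translesion synthesis (19 tested, median 0.073), nucleotide excision repair (23, 0.064), base excision repair and PARP genes (25, 0.092), checkpoint genes (26, 0.18) and PARP inhibitor resistance genes (22 of 24 listed, 0.051). edgeR and DESeq2 also called 0 genes in each, and across all genes 1828 of 13133 had an unadjusted p under 0.05. The medians kept their sign under quantile normalization, edgeR and DESeq2, that of translesion synthesis was 0.15 by edgeR, and that of the resistance list was -0.0026 without OlaR + 2 µM CDDP replicate 2. PARP1, the main target of olaparib, read 1781, 1829 and 1679.97 in OlaR cells and 1939.7, 1763 and 1702 after CDDP. Its groups overlapped (0.030 ± 0.088, limma adjusted p = 0.93), as did those of POLH, the translesion polymerase that passes platinum adducts (-0.039, adjusted p = 0.947). ABCB1, a drug efflux pump linked to olaparib resistance, was near the limit of detection at 18.4, 5.80 and 25.2 against 13.0, 5.69 and 13.5, and the groups overlapped.

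Stress response genes rose in small numbers. In the list for ATF4, the transcription factor of the integrated stress response, 4 of 27 were higher (0.548% of all genes were) and none lower, with a median of 0.17. There were 3 higher without OlaR + 2 µM CDDP replicate 2, as by edgeR and DESeq2. ATF3, itself a stress induced factor, read 84.7, 86.9 and 63.0 in OlaR cells and 139, 142 and 143 after CDDP. The treated libraries were nearly equal, and all were higher, by 0.86 ± 0.18 (log2, limma adjusted p = 0.0075). NUPR1 (0.82) and the pseudokinase gene TRIB3 (0.46) were the others beside CHAC1, but TRIB3 was called only without OlaR replicate 3 when a library was left out (adjusted p up to 0.223) and not by edgeR or DESeq2, and ATF3 lost its call without that library (0.0752). By the paper, SUM1315 expresses mutant p53, and what part p53 had in its listed targets was not tested. Among 32 tested p53 targets 1 was higher, PMAIP1, which encodes the death promoting BCL2 family protein NOXA. It read 65.2, 65.7 and 61.2 against 104, 138 and 112, with no overlap (0.86 ± 0.13, limma adjusted p = 0.000267). The median of the p53 list was 0.099, and PMAIP1 was also the 1 of 15 BCL2 family genes to pass by limma (median 0.13), with 2 higher under quantile normalization.

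The metallothioneins MT1X and MT2A, small metal binding proteins that can bind platinum, were lower. MT1X read 1656, 1532 and 1591 in OlaR cells and 1218, 1120.2 and 1284 after CDDP, without overlap (-0.40 ± 0.09, limma adjusted p = 0.0128). MT2A read 39209, 39656 and 39096 in OlaR cells and 31093, 30270.0 and 31390.2 after CDDP. Again no treated library reached a control, with a log2 fold change of -0.35 ± 0.08 (limma adjusted p = 0.0159). MT1X lost its call without OlaR replicate 1 or OlaR + 2 µM CDDP replicate 2 (adjusted p up to 0.0866), MT2A kept it only without OlaR + 2 µM CDDP replicate 3, and under quantile normalization MT2A stood at -0.046. They were the 2 lower genes (0.876% of all genes were) of 19 tested in the platinum transport and detoxification list (median 0.045, 0 lower without OlaR + 2 µM CDDP replicate 2), with 0 higher by limma, edgeR or DESeq2. HSPA5, the main chaperone of the endoplasmic reticulum, was the lower 1 of 14 heat shock genes (median -0.030, 0.011 under quantile normalization and -0.073 without OlaR + 2 µM CDDP replicate 2). Its counts of 4958, 4792 and 4655 became 3654, 3599 and 3291, with every treated library below every control (-0.45 ± 0.08, limma adjusted p = 0.00227). KRT17 read 3612, 3447 and 3733 against 2659.9, 2354.5 and 2895, also apart (-0.45 ± 0.08, limma adjusted p = 0.00227).

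Of 21 NRF2 targets, AKR1C3 was higher (0.548% of all genes were), at a log2 fold change of 0.39 (limma adjusted p = 0.0228, list median 0.053, 0.090 under quantile normalization), and of 40 interferon-stimulated genes SAMD9 was (0.71, limma adjusted p = 0.0418, list median 0.16). With a library left out, AKR1C3 was called only without OlaR + 2 µM CDDP replicate 2 (adjusted p up to 0.0901) and SAMD9 only without OlaR replicate 3 or OlaR + 2 µM CDDP replicate 1 (up to 0.203). edgeR called 0 genes of either list higher, and quantile normalization and DESeq2 0 interferon-stimulated ones, of which 0 were also higher without OlaR + 2 µM CDDP replicate 2, at a list median of 0.049. No gene of the 29 immediate early and MAPK feedback genes (median -0.037) or of the 24 cholesterol synthesis genes (median 0.0088) passed by limma, edgeR or DESeq2 on all libraries. Without OlaR + 2 µM CDDP replicate 2 1 of the first was higher by limma, and both medians took the opposite sign, at 0.040 and -0.013. Under quantile normalization the first was 0.0017. The 14 epithelial and mesenchymal markers had a median of -0.051 (-0.096 without OlaR + 2 µM CDDP replicate 2, -0.015 under quantile normalization), the 4 hormone receptor and ERBB2 markers 0.37 and the 3 markers of other cells 0.24. The 15 mitochondrially encoded genes had no match in the table and were not analysed here.

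**Figure D3:**
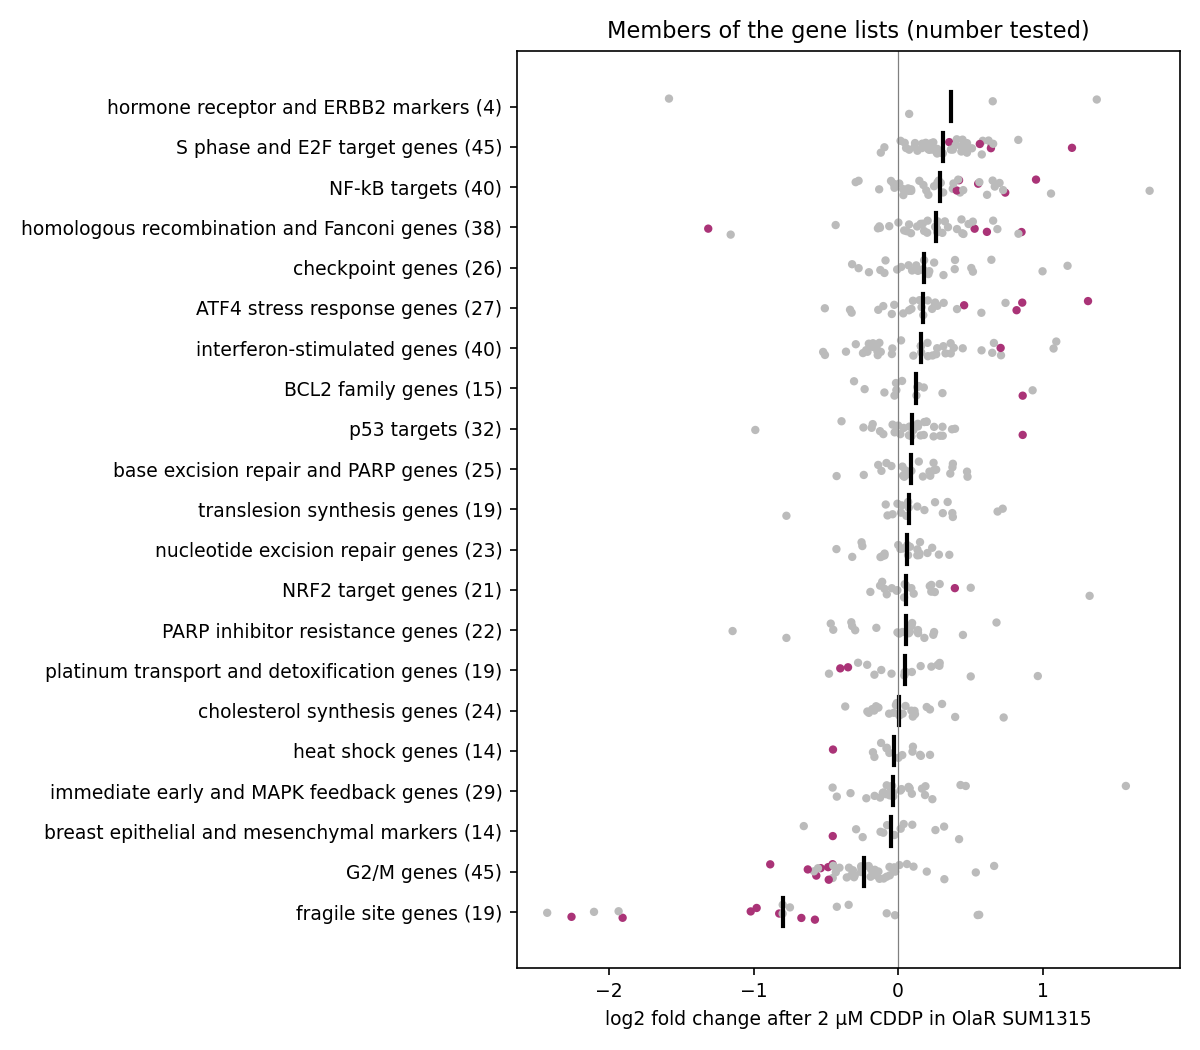
Log2 fold changes after 2 µM CDDP in OlaR SUM1315 for the tested members of each gene list with at least 4 tested members, whose number is in brackets. Points are genes, in purple where the adjusted p was at or under 0.05, and black lines are list medians. Fragile site genes (-0.80) and G2/M genes (-0.23) lie lowest, and S phase genes (0.31) and NF-κB targets (0.29) lie high.

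The next question was how the response at 2 µM compared with that at 4 µM. The comparison of 4 µM with 0 µM uses the same OlaR control libraries, so its values are only placed beside those of 2 µM. At 4 µM there were 502 DEGs (3.82%), 380 of them lower (2.89%), and at the adjusted p 937 genes were higher (7.13%) and 1262 lower (9.61%). Replicate 1 at 4 µM stood apart from its group (chi-square per degree of freedom 6.43 and 4.48, against 3.31 between the other 2). Without it 469 genes were higher and 917 lower, and without OlaR replicate 2 619 and 996. Among genes of 300 kb and over 159 were lower DEGs and 2 higher, with a median of -0.75, against 30 and 0 and -0.35 at 2 µM. Fragile site genes had a median of -1.68 (13 of 19 lower), NF-κB targets 0.38 (19 of 40 higher and 1 lower), S phase genes 0.39 (23 of 45 higher) and G2/M genes -0.15 (11 of 45 lower and 4 higher).

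The step from 2 to 4 µM was tested directly, and most genes that differed were lower at 4 µM. There were 123 DEGs (0.937%), of which 113 were lower (0.86%) and 53 lower ones were of 300 kb and over. edgeR called 60 DEGs for this step, 141 were called without OlaR + 2 µM CDDP replicate 2, and 54 were called when only these 2 groups were fitted. Without that replicate 2, 24 DEGs were higher and 117 lower, against 10 and 113 with all libraries. Lower DEGs were 75 without OlaR + 2 µM CDDP replicate 1. LPP fell further, from the values above to 146, 128.0 and 119.7 at 4 µM (-1.22 from 2 to 4 µM, limma adjusted p = 3.39e-08). BCAS3, a gene of 715 kb, went from 146, 149.99 and 171 in OlaR cells to 79.6, 74.1 and 98.7 at 2 µM and 20.1, 29.0 and 17.3 at 4 µM. No library of a dose overlapped with another dose, and the step was -1.90 (limma adjusted p = 1.32e-07). Its change at 2 µM lost its call without OlaR replicate 3 or OlaR + 2 µM CDDP replicate 2 (up to 0.0677). EXOC4 (-1.80) and SMYD3 (-1.86) were the other 2 named for this step. CXCL1 read 2399.7, 2255 and 2097 at 4 µM beside 2082, 2285 and 2130.2 at 2 µM, with a step of 0.054 (limma adjusted p = 0.877). PLK1 was higher at 4 than at 2 µM (0.56, limma adjusted p = 0.0491), and FANCC stood at 36.9, 31.3 and 26.95 (0.14, adjusted p = 0.833).

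**Figure D4:**
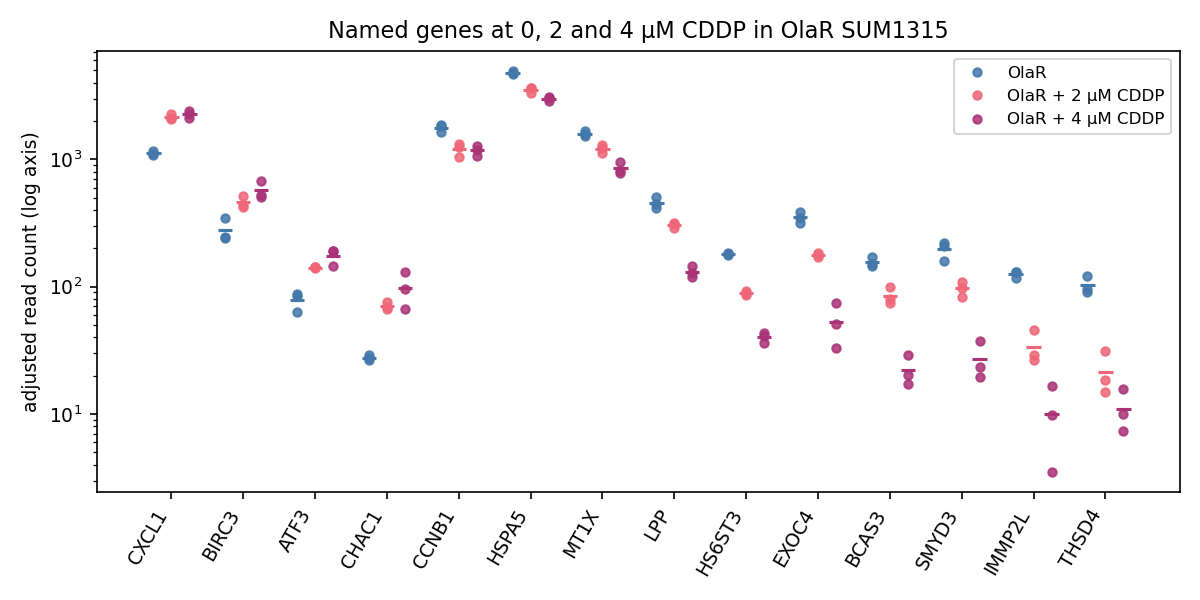
Adjusted read counts (log axis) of 14 named genes in OlaR SUM1315 at 0, 2 and 4 µM CDDP. Points are single libraries, 3 per dose, and lines are means. BCAS3 lies at 146 or more without CDDP, 98.7 or less at 2 µM and 29.0 or less at 4 µM, while CXCL1 lies at 2082 or more at 2 µM and 2097 or more at 4 µM.

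Parental SUM1315 cells in 8 µM olaparib were compared with OlaR cells at the same CDDP dose. OlaR cells were kept in 25 µM olaparib without a break, while by the methods parental cells had olaparib overnight. The resistant state, the olaparib dose and the time in olaparib therefore cannot be told apart. Depth differed too, with 4977284 to 6943388 recovered reads in these parental libraries and 3446613 to 4486158 in the OlaR ones. In parental cells 65 DEGs were found (0.495%), 24 of them lower (0.183%), and 494 genes at the adjusted p (3.76%), 275 higher (2.09%) and 219 lower (1.67%). The 494 became 155 and 152 without parental olaparib replicates 1 and 2, 258 and 161 without replicates 1 and 2 of the combination and 753 by DESeq2, so the shared number below rests on a count that single libraries changed. The direction turned as well, with 311 higher and 446 lower when only these groups were fitted, 269 and 341 without parental olaparib replicate 3 and 163 and 182 without replicate 3 of the combination. The DEG count was 38 and 32 without parental olaparib replicates 1 and 2 and 27 without replicate 2 of the combination. Lower DEGs were 8, 9 and 12 in these fits. Without replicate 3 of the combination the direction of the DEGs turned too, with 36 higher and 47 lower. No DEG was shared between the 70 and the 65, but with 0.533% and 0.495% of genes called this 0 says little. At the adjusted p 20 genes were shared, 10.7% of the 187 and 4.05% of the 494, of which 16 changed in the same direction. Genes of 300 kb and over had a median of -0.078 in parental cells, with 4 lower DEGs and 0 higher, and 6 lower and 5 higher at the adjusted p. Parental medians were 0.35 for S phase genes (17 of 45 higher) and 0.19 for NF-κB targets (7 of 40 higher, 1 lower). They were 0.19 for ATF4 genes (5 of 27 higher) and -0.38 for fragile site genes (1 of 19 lower). G2/M genes stood at 0.069 (4 of 45 higher, 1 lower), and all genes at -0.021.

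The difference between both effects was tested as an interaction, without a fold limit. By limma 181 genes differed (1.38%), 70 with the higher fold change in OlaR cells (0.533%) and 111 with the lower (0.845%). This number was less stable than the others: it was 323 by DESeq2, 440 when only the 4 groups were fitted and 76 without the filter. It was 40 to 109 in 11 of the 12 fits that left out a library, with the lowest value without parental olaparib replicate 2, and 204 without parental olaparib replicate 3. edgeR called 33 and 95.

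H4C3 (HIST1H4C in the table), a gene of the core histone H4, had the smallest p of the difference. It read 12676, 12568 and 12229 in OlaR cells and 8524, 6368 and 8878 after CDDP. In parental cells it went the other way, from 7192, 6439.6 and 5699 to 10998, 12609 and 10768. The difference between the effects was -1.50 ± 0.16 (log2, limma adjusted p = 8.51e-07). Most core histone transcripts lack a poly(A) tail, and how far each library took them up was not tested. The 20 core histone genes tested had a median of -0.72 in OlaR cells and 0.25 in parental cells. CKS2, a CDK subunit of mitosis, read 664, 711 and 645 against 445, 421 and 441 in OlaR cells, and 547, 601 and 588 against 841, 819 and 919 in parental cells. It fell in one and rose in the other, with a difference of -1.20 ± 0.17 (limma adjusted p = 0.000135). NEAT1, a long noncoding RNA of nuclear paraspeckles, read 2344, 2485 and 2439 against 2467, 2755 and 2445 in OlaR cells and 4022, 4318 and 4203 against 2129, 2491 and 2325 in parental cells. Its difference of 0.93 ± 0.12 (limma adjusted p = 3.04e-05) came with overlapping OlaR groups and a fall in parental cells. SNAR-E, a small RNA gene with near identical copies that could share reads, differed by -2.75 ± 0.35 (limma adjusted p = 3.04e-05).

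FANCC read 64.2, 91.8 and 73.95 in parental cells without CDDP and 124, 67.8 and 96.6 with it. The parental groups overlapped, and the difference from the fall in OlaR cells was -1.61 ± 0.32 (limma adjusted p = 0.0102). CDK14 (-1.41) and AURKA (-0.62) also had the lower log2 fold change in OlaR cells, and CHAC1 (1.12) and INKA2 (3.06) the higher. DTL rose in both and less in OlaR cells (-0.75, limma adjusted p = 0.0235). CXCL1, BIRC3 and TNFAIP3 had differences of -0.028, 0.058 and -0.24 with adjusted p of 0.955, 0.91 and 0.419 (limma), and a miss of the threshold does not show equal effects.

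**Figure D5:**
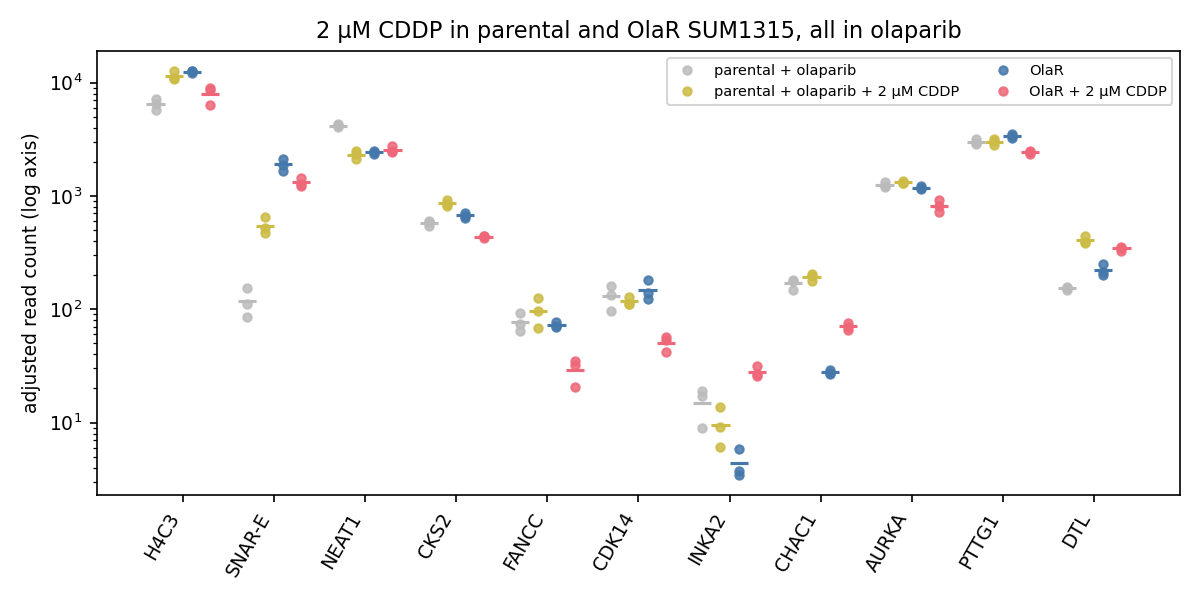
Adjusted read counts (log axis) of 11 named genes in parental SUM1315 cells in olaparib and in OlaR SUM1315 cells, each without and with 2 µM CDDP. Points are single libraries, 3 per group, and lines are means. CKS2 lies at 601 or less in parental cells without CDDP and at 819 or more with it, and at 645 or more in OlaR cells without CDDP and 445 or less with it.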

How the data were processed

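RNA-seq libraries of 3′ transcript ends from SUM1315 cells were analysed. The submitters' processing notes name CASAVA 1.8.2, FastQC, STAR, HTSeq and edgeR on hg38. For 27470 genes the authors deposited a signal, namely reads that edgeR had brought to 1 common library size using each condition's mean, which therefore enters into low values. Whole reads were recovered by inverting this adjustment, and calculating forward gave back 100% of 741690 SUM1315 values with a largest relative difference of 2e-06.

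Since the values are not whole, limma 3.58.1 (R 4.3.3) with a trend on mean level was used in place of the study's edgeR test. It was fitted to log2 values after adding a pseudocount of 1, over 27 SUM1315 libraries in 9 conditions. A gene had to reach 10 in 3 or more of these 27 libraries, parental ones included, which left 13133. Fold changes on this scale understate the change of genes with few reads. Adjustment was by Benjamini-Hochberg. edgeR 4.0.16 and DESeq2 1.42.0 were run on the recovered reads as alternatives, with a pseudocount of 4, no filter, only the groups compared, quantile normalization, a fold limit of 1.5, a replicate block and each library left out. All 3 tools were tested on simulated data. Sensitivity of the 4 µM count, GC content, and lists and spans without replicate 2 of OlaR + 2 µM CDDP were added after seeing the data.

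Named genes were the 12 DEGs with the largest rise and the 12 with the largest fall that had a mean of at least 10 in the 6 libraries and no overlap. To these were added up to 4 members past the threshold in each of 23 lists, genes of interest to the study or its drugs (among them BIRC3, TRAF1, CCL20, PARP1, POLH, BRCA1 and ABCB1), the 4 genes with the smallest p of the interaction and of the dose step with a mean of at least 30, and the 3 on either side of the fold limit. ADRB1, ZNF222, RGS7, GRIK2, CDH3, KLHL9, NFKBIZ, DPYD, PTPRG, CDH13, ARL6IP1, CDC20 and the markers were named after their values were seen, to account for counts. Some genes that met these rules are not reported here. Members and lists were chosen with earlier results of these data known. Symbols matched GENCODE for 24243 current names and, through RefSeq synonyms, 995 older ones. Library totals were 3446613 to 4486158 recovered reads in the 6 samples, and bounds cover counting error only.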

Additional observations from a re-analysis of the deposited data

Results flagged for a closer look

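Of the 67 genes named by rule, those whose response to 2 µM CDDP differed between OlaR and olaparib-treated parental SUM1315 cells, by the interaction in limma at an adjusted p at or under 0.05, are given as the log2 fold change in OlaR minus that in parental cells. H4C3 (HIST1H4C, -1.50), SNAR-E (-2.75), CKS2 (-1.20), PTTG1 (-0.50), AURKA (-0.62), KRT17 (-0.70), SNORD26 (-1.77) and DTL (-0.75) had the lower value in OlaR cells. So did the long genes CDK14 (-1.41), FANCC (-1.61), BCAS3 (-1.01) and HS6ST3 (-0.77). NEAT1 (0.93), INKA2 (FAM212B, 3.06), ZNF350 (2.07), SLC9A5 (2.17), CHAC1 (1.12) and AKR1C3 (0.56) had the higher value. Olaparib dose and time in olaparib differed between the cultures, and the part of these and of resistance was not tested. H4C3 and SNORD26 belong to classes whose transcripts mostly lack a poly(A) tail, and their uptake in each library was not tested. Genes named after their values were seen are not in this list.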

How the results depend on the processing

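Of 67 named genes, 58 passed the threshold, 29 of them under every alternative and 30 in every fit that left out a library. None of the 58 changed sign, while PARP1 (-0.0048 without OlaR replicate 3, with -0.025 to 0.069 over the libraries left out) and POLH (0.011 without OlaR + 2 µM CDDP replicate 3, with -0.13 to 0.060) did so without passing. BRCA1 and SNAR-E gained a call with only the groups compared. edgeR cost 17 of the 58 their call, DESeq2 11, the fit of only the groups compared 10 and no filter 11. The cause was not tested.

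DEGs after 2 µM CDDP in OlaR cells were 33 by edgeR and 45 by DESeq2 on the recovered reads, 134 at a fold of at least 1.5 (49 higher, 85 lower) and 46 to 63 with a library left out. Higher DEGs were 6 by edgeR, 9 by DESeq2, 11 with only the groups compared and 15 to 25 with a library left out. Lower DEGs were 27 by edgeR and 26 to 48 with a library left out. Genes at the adjusted p were 89 by edgeR and 101 to 126 with a library left out. At 4 µM 1179 genes passed at a fold of at least 1.5. The dose step had 60 DEGs by edgeR, 54 with only the groups compared and 224 at a fold of at least 1.5. In parental cells the lower fold limit gave 249 DEGs, and leaving out a library 27 to 87. The interaction held 76 genes with no filter, 323 by DESeq2, 440 with only the groups compared and 40 to 204 with a library left out. With no filter the median of genes of 300 kb and over was -0.12, as more genes with few reads entered.

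Replicate numbers did not pair the libraries, since same-numbered OlaR libraries with and without 2 µM CDDP had correlations of 0.014, 0.020 and 0.021 after removal of condition means. With a replicate block 68 DEGs were found, 66 of them among the 70. Depth limits genes of a few reads, where small differences could be missed.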

Other observations

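Groups of genes sharing a symbol were looked at after the values had been seen, and are given as values without a test. Over all genes 0.548% were higher and 0.876% lower at the adjusted p after 2 µM CDDP in OlaR cells, and 2.09% and 1.67% in olaparib-treated parental cells. Of 20 core histone genes tested, 19 were below 0 after 2 µM CDDP in OlaR cells (median -0.72, 1 lower at the adjusted p), and 15 were above 0 in olaparib-treated parental cells (median 0.25, 2 higher). The 6 linker histone genes had a median of -0.59 in OlaR cells, with 4 lower, against 0.058 in parental cells. Without OlaR + 2 µM CDDP replicate 2 the linker histone median was -0.54 and 0 were lower by limma, against 2 by edgeR and 3 by DESeq2 with all libraries. Of 90 genes of small nucleolar and Cajal body RNAs, 68 were below 0 in OlaR cells (median -0.47, 2 lower by limma, 1 by edgeR, 0 by DESeq2 and 1 without OlaR + 2 µM CDDP replicate 2) and 66 above 0 in parental cells (median 0.65, 11 higher). Medians of these 3 groups stayed negative in OlaR cells under quantile normalization, edgeR and DESeq2. Most of these transcripts lack a poly(A) tail, and how far each library took them up was not tested.

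Zinc finger genes with a ZNF symbol moved little as a group. Of 403 tested, 6 were higher and 0 lower at the adjusted p by limma, 1 and 0 by edgeR, 2 and 0 by DESeq2, 6 and 1 under quantile normalization and 4 and 1 without OlaR + 2 µM CDDP replicate 2. Their median was 0.063 at 2 µM and 0.17 at 4 µM, where 32 were higher and 17 lower (7.13% and 9.61% of all genes), and the 2 values share their control libraries.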
